A study of Mus musculus with 4 samples.

Results

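The data presented here cover 10 genes of TWEAK and TNF receptor signalling in mouse cardiomyocytes, of 22322 genes listed for each library: the ligands Tnfsf12 and Tnf, the receptors Tnfrsf12a, Tnfrsf1a, Tnfrsf1b and Tnfrsf10b, and the adaptors and ubiquitin ligases Traf2, Traf3, Birc2 and Birc3. They were taken by gene symbol, and the set was selected on the higher CPM of Tnfrsf12a in TAC than in sham, so that this comparison of Tnfrsf12a is a description and carries no test. RNA-seq was performed on 2 libraries from sham-operated mice and 2 from mice after transverse aortic constriction (TAC), in which the aortic arch is narrowed surgically so that the left ventricle works against a higher pressure. According to the methods of the study, the mice were male and 2 months old at surgery. The time of cell isolation is tied to 14 weeks, which the methods give both as the time after surgery and as the age of the mice. Cells were released by Langendorff perfusion of the heart with enzymes, and sham and TAC cells both went through this step. No strain and no genetic change is named for either group in the sources used here.

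TWEAK, the product of Tnfsf12, is a ligand of the TNF family that binds the small receptor Fn14, encoded by Tnfrsf12a. Fn14 and the TNF receptors have no enzyme activity of their own and pass the signal on through TRAF adaptors, which carry the ubiquitin ligases cIAP1 (Birc2) and cIAP2 (Birc3) to the receptor and connect it to the classical and alternative NF-kappaB pathways. In muscle and heart Fn14 is known as a receptor that is induced by injury or load, whereas TNF comes mainly from leukocytes.

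The libraries held 24237777 to 32118323 expected counts, and mitochondrial genes took 39.84% to 47.42% of them, with the highest share in TAC 1. Markers of cardiomyocytes, such as Myh6, Tnnt2 and Ttn, summed to between 49371 and 56619 CPM (counts scaled to a common library size with TMM factors), and all 10 were detected in all 4 libraries. Markers of other cells were present at lower levels and were not even between the groups. The endothelial list ranged from 489.8 to 612.9 CPM in sham and from 296.4 to 411.9 CPM in TAC, and the fibroblast list from 178.5 to 250.5 CPM in sham and from 106.1 to 143 CPM in TAC. For leukocytes the sum was 138.1 and 70.65 CPM in sham 1 and 2 and 37.8 and 70.59 CPM in TAC 1 and 2. Immediate early genes, such as Fos and Egr1, summed to 1047 and 610.6 CPM in sham 1 and 2 and 240.4 and 233 CPM in TAC 1 and 2. Of this list, 9 of 11 fell in TAC (edgeR), against 2.43% of all genes tested. The paper counts Fos, Jun, Junb and Egr1 among the changed transcription factors that matter for cardiac function. The part of cell isolation or of the operation in these values was not tested. The sum of the mural markers was between 2252 and 2584 CPM, of which 1495 to 2005 CPM came from Des, a gene that cardiomyocytes also express. Of its 10 genes, 8 were lower in both TAC libraries than in both sham libraries, against 30.3% of all genes. In such bulk samples, fewer cells of a type and less RNA per cell cannot be told apart.

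Among the members, Tnfrsf12a stood apart in level and in the size of its difference. The plot of FPKM by library (fragments scaled by transcript length and library size, the unit in which levels of different genes are compared here) shows it above all other members in every library. The gene (ENSMUSG00000023905) lies on the reverse strand at chr17:23675445-23677468 of GRCm38, and no other annotated gene overlaps it. Its count was 1531 and 1064 in sham 1 and 2 and 4787 and 3668 in TAC 1 and 2. Scaled to library size, it was at 48.4 and 37.0 CPM in sham 1 and 2 and 171.7 and 150.0 CPM in TAC 1 and 2. Both TAC libraries were thus far above both sham libraries, with means of 160.8 ± 15.3 CPM (SD, n = 2) in TAC and 42.7 ± 8.07 CPM in sham. This corresponded to a log2 fold change of 1.91 ± 0.13 (SE, edgeR), or 3.77-fold, given as a description. By the size of its log2 fold change it was number 35 of 12499 genes tested, and number 10 of the 8492 genes that averaged 5 CPM or more. The mean FPKM was 46.5 in sham, above 93.4% of the genes tested, and 152.7 in TAC, above 98.0% of them. When counts were scaled by library total, which moved the median of all genes tested to -0.20 from -0.01, the log2 fold change of Tnfrsf12a was 1.71.

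**Figure D1:**
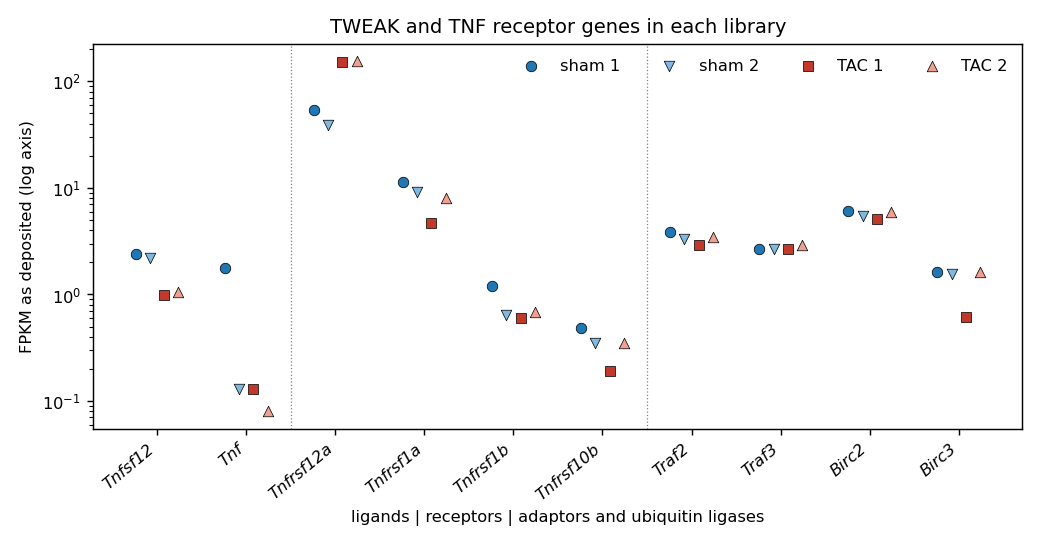
Deposited FPKM (log axis) of the 10 genes in each of the 4 libraries, ordered as ligands, receptors, and adaptors and ubiquitin ligases. Each point is 1 library. The Tnfrsf12a points lie at 39.1 and 53.9 FPKM in sham and at 151.5 and 153.9 in TAC, Tnf is high in sham 1 only, and the points of Traf2, Traf3 and Birc2 lie close together.

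The region before the start of Tnfrsf12a is shown here because it is the member with the large difference. Windows of 250 bases before to 50 bases after the start were taken from the RefSeq promoter table on GRCm38.p6, which matched 8 of 10 members and not Tnfsf12 or Tnfrsf10b. The letters GGGCGG (the GC box) were searched on both strands, and overlapping matches were counted. The Tnfrsf12a window held 5 matches. At least 1 match was found in 35.7% of all 32851 windows, and at least 5 in 2.71% of them. Other members held the GC box too, with 4 matches in Traf3, 2 in Tnfrsf1b, 2 in 1 of the windows of Birc2 and 1 each in Traf2 and Tnf. The stretches below are written on the strand of the gene, with the matched letters in capitals, and their order follows the distance from the start.
Tnfrsf12a, chr17:23677623-23677652, reverse strand: caagtttgcagaGGGCGGagtagggtagac
Tnfrsf12a, chr17:23677519-23677548, reverse strand: gagtggctgttgGGGCGGgccgaggccagc
Tnfrsf12a, chr17:23677498-23677527, reverse strand: gaggccagcgctCCGCCCcggaaggcgggg
Tnfrsf12a, chr17:23677482-23677511, reverse strand: cccggaaggcggGGGCGGGGGCGGagccgc
The first match began 191 bases before the start and the last ones lay in a pair of adjacent copies at 50 and 44 bases before it. These distances are counted from the RefSeq start that set the window, which differs from the GENCODE start of Tnfrsf12a at chr17:23677468. The window was 59.7% G and C, against a median of 52.7% over all windows.

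The same Tnfrsf12a window held no match to the AP-1 letters TGANTCA (found in 7.81% of windows), to the TEAD letters GGAATG (14.7%), to the NF-kappaB motif (8.46%) or to the CArG motif (1.63%), searched on both strands. Among the other matched members, the NF-kappaB motif occurred only in the window of Traf3, on its own strand and beginning 10 bases before the start, in a stretch shown because Traf3 acts in the alternative NF-kappaB pathway.
Traf3, chr12:111166350-111166379, forward strand: ggcggcccgcGGGGATTTCCagcgcgcgag
The TEAD letters occurred in these members only in Tnfrsf1b, with 2 matches. Such matches describe the letters in these windows and no binding was measured.

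The ligands did not follow Tnfrsf12a. For Tnfsf12 (ENSMUSG00000097328, chr11:69686250-69695849, reverse strand), the level was 3.13 and 3.06 CPM in sham 1 and 2 and 1.61 and 1.47 CPM in TAC 1 and 2. Both TAC libraries were below both sham libraries, with means of 1.54 ± 0.10 CPM (SD, n = 2) in TAC and 3.09 ± 0.0499 CPM in sham. The log2 fold change was -0.9997 ± 0.25 (SE, 95% interval -1.57 to -0.43), and the edgeR test did not pass after Benjamini-Hochberg adjustment over all genes (adjusted p = 0.0611). The adjusted p ranged from 0.0237 to 0.18 over 12 alternatives and was below 0.05 in 3 of them, which were no low-count filter (0.0237), a crossed pairing of the libraries (0.0272) and limma on log2(FPKM + 1) (0.044). The expected counts of Tnfsf12 were not whole, at 98.65, 88.35, 45.27 and 36.45. Its locus is shared with Tnfsfm13 on the same strand and with the antisense gene Tnfsf13os. Counts of Tnfsfm13, not scaled to library size, were 64.49 and 43.45 in sham 1 and 2 and 22.7 and 33.64 in TAC 1 and 2. The TAC counts were the lower ones. TAC 2 held fewer expected counts in total than sham 2 (24237777 against 27678165), so depth enters the difference between them. Tnfsf13, which also has fractional counts, had 5.86 and 4.2 in sham 1 and 2 and 4.03 and 7.92 in TAC 1 and 2, with TAC 2 the highest. The sources used here do not say how reads were divided between these genes. The endothelial and fibroblast sums were lower in both TAC libraries as well, and their part in the Tnfsf12 value was not tested.

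The second ligand, Tnf (ENSMUSG00000024401, chr17:35199381-35202007, reverse strand), was almost absent outside 1 library. Sham 1 held 83 counts (exact 95% Poisson interval, for counting error only, 66.1 to 102.9), whereas sham 2 held 6 (2.202 to 13.1), TAC 1 held 7 (2.81 to 14.4) and TAC 2 held 3 (0.619 to 8.77). Only sham 1 was outside the intervals of the other 3 libraries, and the groups overlapped. Tnf did not pass the filter on low counts and so has no p in the comparison reported here. Without the filter, edgeR gave it a log2 fold change of -2.88 (adjusted p = 0.0248) over the same 4 libraries. The log2 ratio of the mean CPM of TAC to that of sham was -2.92, and it was -0.16 without sham 1. Sham 1 was also the library with the highest leukocyte, endothelial, fibroblast and immediate early sums, and their part in the Tnf value was not tested.

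The ratio of receptor to ligand within a library was computed from FPKM as a description, since it contains the values on which Tnfrsf12a was chosen. Tnfrsf12a was 22.7 times Tnfsf12 in sham 1 and 17.6 times in sham 2, against 154.6 times in TAC 1 and 146.5 times in TAC 2. The TNF receptor Tnfrsf1a was exceeded by Tnfrsf12a 4.78 times in sham 1 and 4.27 times in sham 2, and 32.3 times in TAC 1 and 19.0 times in TAC 2. In all 4 libraries Tnfrsf12a was thus the highest of the 4 receptors and Tnfrsf1a the next.

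Tnfrsf1a (ENSMUSG00000030341, chr6:125349362-125362484, forward strand) encodes TNF receptor 1, the widely expressed receptor with a death domain. It was at 22.2 and 19.0 CPM in sham 1 and 2 and 11.7 and 17.3 CPM in TAC 1 and 2. The groups did not overlap, but TAC 2 was nearer to sham 2 than to TAC 1. The log2 fold change was -0.51 ± 0.18 (SE, 95% interval -0.94 to -0.09) and did not pass (edgeR adjusted p = 0.129). It was -0.26 without TAC 1 (adjusted p = 0.411) and -0.82 without TAC 2 (adjusted p = 0.0138). In these and all later fits without 1 library, that arm is a single library, the spread comes from the other group, and the lone library is assumed to vary like it. Tnfrsf1a passed without the low-count filter (0.0335) and under the crossed pairing (0.0196), and its adjusted p ranged from 0.0138 to 0.411 over 12 alternatives. TAC 1 was the library with the highest mitochondrial share and the lowest endothelial, fibroblast and leukocyte sums, and their part in the Tnfrsf1a value was not tested.

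Tnfrsf1b (ENSMUSG00000028599, chr4:145213463-145246870, reverse strand) encodes TNF receptor 2, which lacks a death domain and is found mainly on endothelial cells and leukocytes. Its level was 4.17 and 2.36 CPM in sham 1 and 2 and 2.62 and 2.62 CPM in TAC 1 and 2, so that sham 1 was high and the other 3 libraries were alike. The log2 fold change of -0.32 ± 0.30 (SE, 95% interval -1.03 to 0.38, edgeR adjusted p = 0.517) turned to 0.15 without sham 1. In FPKM, Tnfrsf1a was 9.41, 14.3, 7.82 and 11.7 times Tnfrsf1b in sham 1, sham 2, TAC 1 and TAC 2, and the 2 groups overlapped in this ratio.

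Tnfrsf10b (ENSMUSG00000022074, chr14:69767472-69784411, forward strand), the death receptor for TRAIL, was the lowest of the receptors. It had 44 and 31 counts in sham 1 and 2 and 19 and 27 counts in TAC 1 and 2, or 1.39, 1.08, 0.681 and 1.10 CPM. The groups overlapped, and the log2 fold change of -0.48 ± 0.39 (SE, 95% interval -1.40 to 0.44) did not pass (edgeR adjusted p = 0.458). It was -0.28 without sham 1, -0.16 without TAC 1 and -0.85 without TAC 2. At this depth a change of the size seen in Tnfsf12 was within its interval.

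**Figure D2:**
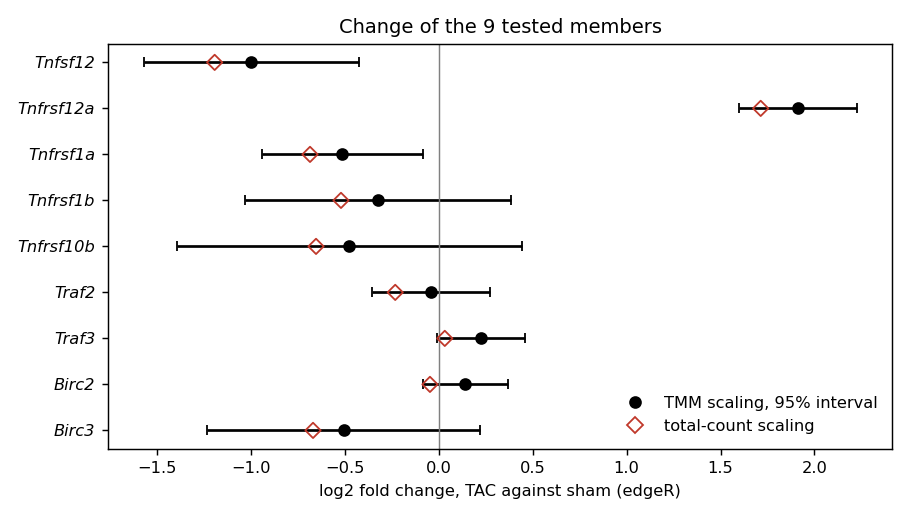
Log2 fold change (TAC against sham, edgeR) of the 9 members that passed the low-count filter, with TMM scaling and its 95% interval (black) and with total-count scaling (open diamonds). Tnfrsf12a, on which the set was chosen, lies at 1.91, and its interval describes spread only and is no test of its difference. The intervals of Tnfsf12 and Tnfrsf1a lie below 0 before adjustment for multiple tests.

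The adaptors were close to level between the groups. Traf2 (ENSMUSG00000026942, chr2:25517982-25546940, reverse strand), which recruits the cIAP ligases, was at 8.82 and 8.20 CPM in sham 1 and 2 and 8.32 and 8.22 CPM in TAC 1 and 2. These values overlapped, and the log2 fold change was -0.04 ± 0.14 (SE, 95% interval -0.36 to 0.27, edgeR adjusted p = 0.869), which turned to 0.01 without sham 1. Traf3 (ENSMUSG00000021277, chr12:111166370-111267153, forward strand), which holds the kinase NIK at a low level in resting cells, was at 17.4 CPM in both sham libraries, 21.02 in TAC 1 and 19.5 in TAC 2. Both TAC libraries were above both sham libraries, yet the log2 fold change of 0.22 ± 0.10 (SE, 95% interval -0.01 to 0.46) did not pass (edgeR adjusted p = 0.196). With total-count scaling it was 0.03, or 0.23 above the median of all genes under that scaling. Traf2 and Traf3 each overlap a gene on the opposite strand, Gm13433 and 4930595D18Rik, and without knowledge of strand in the counting their reads cannot be told apart.

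The cIAP genes lie next to each other on chromosome 9, and neither passed the test. Birc2 (ENSMUSG00000057367, chr9:7818227-7837064, reverse strand) was at 17.1 and 17.3 CPM in sham 1 and 2 and 19.0 and 19.0 CPM in TAC 1 and 2. Both TAC libraries were above both sham libraries, with a log2 fold change of 0.14 ± 0.10 (SE, 95% interval -0.09 to 0.37, edgeR adjusted p = 0.380), which was -0.05 with total-count scaling, or 0.15 above the median of all genes under that scaling. Birc3 (ENSMUSG00000032000, chr9:7848699-7873186, reverse strand), itself an NF-kappaB target, was at 3.73 and 3.997 CPM in sham 1 and 2 and 1.87 and 3.60 CPM in TAC 1 and 2. TAC 1 alone was low, and the log2 fold change of -0.51 ± 0.31 (SE, 95% interval -1.24 to 0.22, edgeR adjusted p = 0.326) was -0.10 without TAC 1 and -1.05 without TAC 2. In FPKM the ratio of Birc2 to Birc3 was 3.801 and 3.53 in sham 1 and 2 and 8.43 and 3.66 in TAC 1 and 2, so TAC 1 stood apart and TAC 2 lay between the sham libraries. The transcript length implied by count and FPKM of Birc3 differed by a factor of up to 1.18 between libraries, which enters this ratio.

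Thus, of the 9 members other than Tnfrsf12a, 8 were tested and 0 passed the edgeR test, against 5.01% of all genes tested (2.58% higher and 2.43% lower in TAC). DESeq2 called 0 of them, with no adjusted p for Tnfrsf10b, against 8.56% of all genes. By limma, 1 was called on log2(FPKM + 1) and 0 on log2(FPKM + 0.1), against 1.71% and 1.56% of all genes. At an unadjusted p below 0.05 there were 2 of 8, Tnfsf12 and Tnfrsf1a, against 27.5% of all genes. In 2 of the 8 genes (Traf3 and Birc2) both TAC libraries were above both sham libraries, against 29.8% of all genes, and in 3 (Tnfsf12, Tnfrsf1a and Birc3) both were below, against 30.3%. The median log2 fold change of the 8 was -0.40, beside a median of -0.01 over all genes tested. For 1 gene alone, exact permutation of 2 against 2 libraries gives no p smaller than 0.333, so each p rests on the spread that edgeR pools over genes.

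In sham the order of the mean FPKM was Tnfrsf12a (46.5), Tnfrsf1a (10.2), Birc2 (5.82), Traf2 (3.59), Traf3 (2.70), Tnfsf12 (2.30), Birc3 (1.59), Tnf (0.945), Tnfrsf1b (0.920) and Tnfrsf10b (0.415). Of the neighbours in this order, Birc3 and Tnf overlapped between the sham libraries, and so did Tnf and Tnfrsf1b, as Tnf was at 1.76 FPKM in sham 1 and 0.130 in sham 2. In TAC, Tnfrsf12a was at 152.7 FPKM, Tnfrsf1a at 6.39 and Birc2 at 5.52, and the last place was taken by Tnf at 0.105. Tnfrsf1a and Birc2 overlapped in TAC, with Tnfrsf1a at 4.69 FPKM in TAC 1 and 8.08 in TAC 2 and Birc2 at 5.14 and 5.89. Birc3, at 0.61 and 1.61 FPKM, overlapped Tnfsf12, the next gene in TAC, at 0.98 and 1.05.

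**Figure D3:**
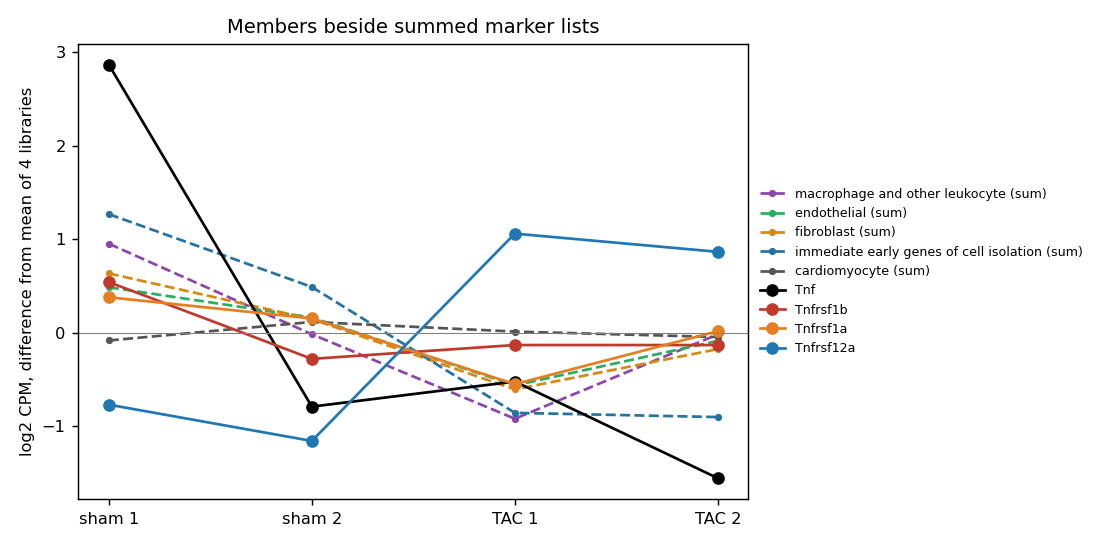
Log2 CPM of 4 members (solid lines) and of the summed marker lists (dashed lines), each as the difference from its own mean over the 4 libraries. Lines only join the values of a gene or list. Tnf and Tnfrsf1b are highest in sham 1, as are the leukocyte, endothelial, fibroblast and immediate early sums, and Tnfrsf1a is lowest in TAC 1, as are the leukocyte, endothelial and fibroblast sums.

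Other genes of the family and pathway were taken from lists, and their changes are shown in the plot of pathway genes. Of 16 other ligands, 3 (Lta, Cd70 and Tnfsf4) had no count in any library and only 3 passed the low-count filter. None of these passed the edgeR test (5.01% of all genes). DESeq2 (8.56%), which gave no adjusted p for Tnfsf13b, and limma (1.71% and 1.56%) called none. At an unadjusted p below 0.05 there was 1 of these ligands, against 27.5% of all genes. The most abundant were Tnfsf10, which encodes TRAIL, with a log2 fold change of -0.57 ± 0.18 (SE, edgeR adjusted p = 0.101) that was -0.37 without sham 1, and Tnfsf13b, which encodes the B cell factor BAFF, with -0.61 ± 0.40 (edgeR adjusted p = 0.349).

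Of 24 other receptors, 11 were tested and 1 fell, against 2.43% of all genes. At an unadjusted p below 0.05 there were 5 of 11 (27.5% of all genes). In 6 of 11 both TAC libraries were below both sham libraries (30.3% of all genes), and in 2 both were above (29.8%). Those below 0.05 included Relt, named after its values were seen, which was higher in TAC. Its log2 fold change was 0.66 ± 0.20 (SE, edgeR adjusted p = 0.0964). The gene that fell was Tnfrsf19, a receptor known from development. It was at 7.36 and 6.19 CPM in sham 1 and 2 and 1.58 and 3.27 CPM in TAC 1 and 2. Both TAC libraries were below both sham libraries, and the log2 fold change was -1.50 ± 0.31 (SE, edgeR adjusted p = 0.0427), or -1.05 without TAC 1 (adjusted p = 0.06). Over the alternatives its adjusted p ranged from 0.000651 to 0.0617. The most abundant other receptors were Ltbr, the lymphotoxin receptor, with a log2 fold change of 0.13 ± 0.14 (SE, edgeR adjusted p = 0.581), and the death receptor Fas. Fas was at 8.25 and 9.52 CPM in sham 1 and 2 and 5.49 and 5.81 CPM in TAC 1 and 2, with a log2 fold change of -0.65 ± 0.15 (SE, edgeR adjusted p = 0.0546, range over alternatives 0.0158 to 0.183). The median of the 11 receptors was -0.55. As for Tnfsf12, the lower values of Tnfrsf19 and Fas in TAC stand beside lower endothelial and fibroblast sums, whose part was not tested.

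Among 30 tested genes of the receptor complexes and the steps below them, 2 rose and 0 fell, against 2.58% higher and 2.43% lower among all genes, and the median log2 fold change was -0.08. At an unadjusted p below 0.05 there were 7 of 30, against 27.5% of all genes. Otulin, which encodes the deubiquitinase that removes linear ubiquitin chains, was at 12.4 and 11.6 CPM in sham 1 and 2 and 25.6 and 22.0 CPM in TAC 1 and 2. The groups were far apart, with a log2 fold change of 0.99 ± 0.12 (SE, edgeR adjusted p = 0.0078), and it passed in all 12 alternatives (adjusted p 1.11e-06 to 0.0294). Tnip1, which encodes the A20-binding protein ABIN1 that restrains NF-kappaB, was at 23.8, 25.9, 36.8 and 32.1 CPM in sham 1, sham 2, TAC 1 and TAC 2. Its log2 fold change was 0.47 ± 0.10 (SE, edgeR adjusted p = 0.0474). This call was lost with total-count scaling (adjusted p = 0.219), with the replicate block (0.0617), without sham 1 (0.128), without TAC 1 (0.156) and on FPKM (0.307 and 0.308). Tab2, an adaptor of the kinase TAK1 and the most abundant gene of this list, had a log2 fold change of 0.05 ± 0.07 (SE, edgeR adjusted p = 0.708). Named after their values were seen were Map3k14, which encodes NIK, at 0.27 ± 0.22 (SE, edgeR adjusted p = 0.435), and Tnfaip3, which encodes A20, at -0.98 ± 0.42 (SE, edgeR adjusted p = 0.180), which was -0.20 without sham 1 and -1.46 without sham 2 (adjusted p = 0.0164).

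**Figure D4:**
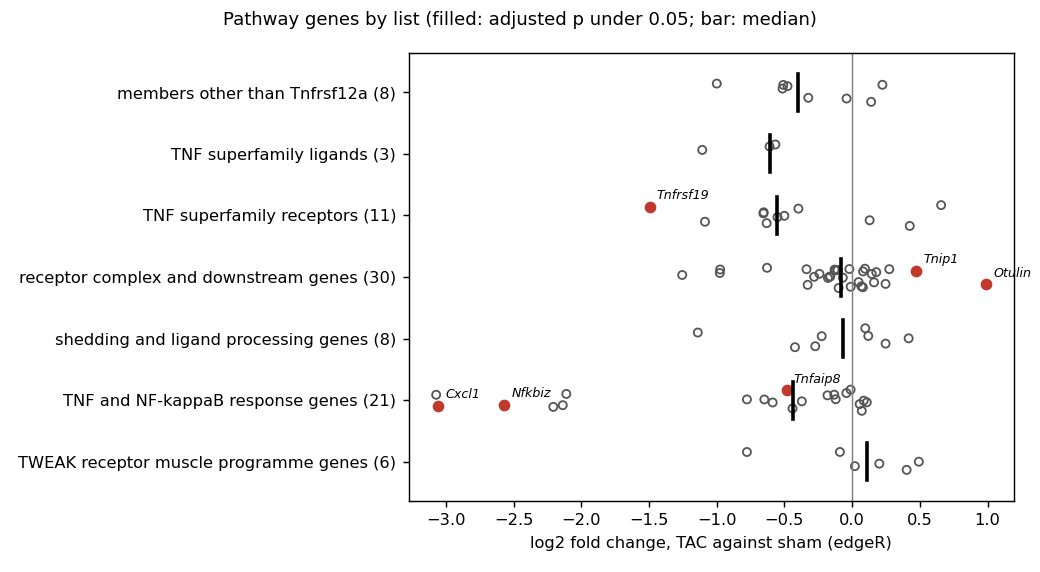
Log2 fold change (TAC against sham, edgeR) of each tested gene by list, with the number tested in brackets. Filled points passed at an adjusted p below 0.05 and bars are list medians, which lie between -0.61 and 0.11.

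A list for shedding and ligand processing held membrane proteases, the rhomboid-like partners Rhbdf1 and Rhbdf2, secretory convertases and the inhibitor Timp3. In edgeR it had 0 calls among 8 genes (5.01% of all genes), with 4 at an unadjusted p below 0.05 (27.5% of all genes) and a median of -0.06. DESeq2 called 1 of them (Timp3), against 8.56% of all genes, and limma 0. Furin, a convertase of the secretory pathway, had a log2 fold change of 0.12 ± 0.08 (SE, edgeR adjusted p = 0.341). Timp3, the inhibitor of the TNF-releasing protease Adam17, was at 78.2 and 79.2 CPM in sham 1 and 2 and 50.6 and 67.0 CPM in TAC 1 and 2, with a log2 fold change of -0.42 ± 0.13 (SE, edgeR adjusted p = 0.0898), which was -0.23 without TAC 1 (adjusted p = 0.263) and -0.64 without TAC 2 (adjusted p = 0.00601). Adam17 itself, named after its values were seen, had a log2 fold change of 0.25 ± 0.09 (SE, edgeR adjusted p = 0.126).

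Of 25 TNF and NF-kappaB response genes, 21 were tested, 3 fell and 0 rose, against 2.43% lower and 2.58% higher among all genes tested. At an unadjusted p below 0.05 there were 7 of 21, against 27.5% of all genes. The median log2 fold change was -0.44, beside -0.01 over all genes. Cxcl1, a neutrophil chemokine, was at 5.53 and 2.85 CPM in sham 1 and 2 and 0.287 and 0.736 CPM in TAC 1 and 2. Its log2 fold change was -3.06 ± 0.49 (SE, edgeR adjusted p = 0.0215), and it passed in all 12 alternatives (adjusted p 1.14e-06 to 0.0429), with -2.49 without sham 1, -2.51 without TAC 1 and -3.85 without TAC 2. Nfkbiz, an atypical IkappaB protein, was at 18.2 and 5.18 CPM in sham 1 and 2 and 1.76 and 2.21 CPM in TAC 1 and 2. In both genes sham 1 was the highest library and sham 2 the next. The log2 fold change of Nfkbiz was -2.57 ± 0.56 (SE, edgeR adjusted p = 0.0467), -1.39 without sham 1 (adjusted p = 0.0151) and -2.41 without TAC 1 (adjusted p = 0.12), and its adjusted p ranged from 3.21e-06 to 0.12.

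Tnfaip8, a TNF-induced regulator of cell death, was more even within the groups, at 44.6, 48.4, 32.8 and 33.6 CPM in sham 1, sham 2, TAC 1 and TAC 2. Its log2 fold change was -0.48 ± 0.08 (SE, edgeR adjusted p = 0.0268), with an adjusted p of 0.0714 without sham 2 and 0.0688 without TAC 1. The most abundant gene of the list, Sod2, the mitochondrial superoxide dismutase, had a log2 fold change of 0.09 ± 0.08 (SE, edgeR adjusted p = 0.539). Of the 21 response genes, 14 had their highest level in sham 1, against 27.1% of all genes tested. They stand beside the leukocyte, endothelial, fibroblast and immediate early sums, which were also highest in sham 1, and the part of those in the response genes was not tested.

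A list of genes that work on TWEAK in muscle has named, such as ubiquitin ligases of muscle wasting, held 8 genes, of which Myog had no count, Mmp9 was also a response gene and 6 were tested. None passed in edgeR (5.01% of all genes) or limma (1.71% and 1.56%), 3 were below an unadjusted p of 0.05 (27.5% of all genes), DESeq2 called 2 (8.56% of all genes), and the median log2 fold change was 0.11. Slc2a4, the insulin-regulated glucose transporter, had a log2 fold change of 0.02 ± 0.07 (SE, edgeR adjusted p = 0.885). Named after their values were seen were Fbxo32 and Ppargc1a. The ubiquitin ligase Fbxo32 overlapped between the groups, with a log2 fold change of -0.09 ± 0.10 (SE, edgeR adjusted p = 0.589). Ppargc1a was at 0.40 ± 0.10 (SE, edgeR adjusted p = 0.0553). Trim63, the ubiquitin ligase MuRF1, was at 122.1 and 131.1 CPM in sham 1 and 2 and 201.1 and 154.8 CPM in TAC 1 and 2. The sham libraries were the lower pair, and its log2 fold change of 0.49 ± 0.12 (SE) did not pass (edgeR adjusted p = 0.0619, range over alternatives 0.00272 to 0.179). It was 0.29 without TAC 1 (adjusted p = 0.179) and passed at 0.67 without TAC 2 (0.00406) and at 0.55 without sham 2 (0.0381).

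The genes most like Tnfrsf12a over the 4 libraries were ranked by Euclidean distance of log2(CPM + 1), centred on each gene's mean, among 8491 other genes that averaged 5 CPM or more. The 5 nearest were Nr4a3, an orphan nuclear receptor (distance 0.176), Aqp8, a water channel (0.216), Rcan1, a feedback inhibitor and target of calcineurin (0.362), Edn3, an endothelin (0.459), and Nppb, which encodes the natriuretic peptide BNP (0.474). In CPM, Rcan1 was at 92.9 and 61.1 in sham 1 and 2 and 398.1 and 308.1 in TAC 1 and 2. Nppb was at 163.4 and 170.7 in sham 1 and 2 and 760.1 and 471.1 in TAC 1 and 2. Like Tnfrsf12a, these genes had TAC 1 as their highest library and TAC 2 as the next. The likeness rests on 4 libraries and describes the same pattern by which Tnfrsf12a was chosen.

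**Figure D5:**
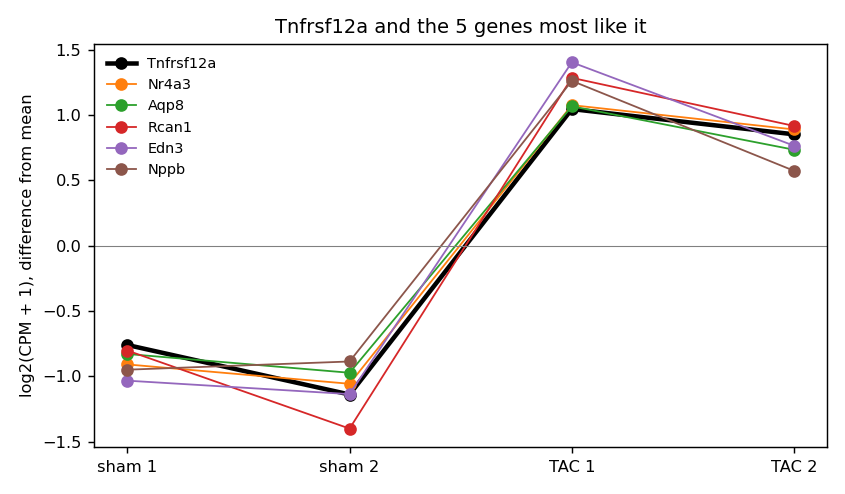
Tnfrsf12a (thick line) and the 5 genes nearest to it, as log2(CPM + 1) minus the gene's mean over the 4 libraries. Lines only join the values of a gene. All 6 genes lie below 0 in both sham libraries and above 0 in both TAC libraries.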

How the data were processed

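For each of 4 cardiomyocyte libraries the deposited file gives each gene an expected count, an estimate that can be fractional, and an FPKM value, both made by the authors. The submitters' notes name mm10, Bowtie2 2.2.8 and StringTie 1.3.1. Which program counted the reads, and whether it used strand, is not stated in these sources. Sample titles gave the groups and the replicate numbers. The methods describe cells of separate hearts, but the labels do not, so p-values measure the spread between these libraries. To look for a library deposited more than once, replicates were compared over genes: they differed by more than counting noise (chi-square per degree of freedom 8.08 in sham and 26.7 in TAC), which says nothing of whether they are separate hearts.

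Expected counts were rounded, filtered with filterByExpr, scaled by TMM factors and tested in R 4.3.3 with edgeR 4.0.16 (glmQLFit and glmQLFTest, no block), with Benjamini-Hochberg adjustment over 12499 genes and a threshold of 0.05. The script was tested on simulated data. DESeq2 1.42.0, limma 3.58.1 on the deposited FPKM (pseudocounts of 1 and 0.1), other scalings, no filter, a replicate block and leaving out each library were alternatives. The standard error was taken from the F statistic. Gene positions came from GENCODE release M21.

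The members and all lists (other ligands, other receptors, receptor complexes, shedding, response genes, TWEAK muscle genes and markers of cardiomyocytes, endothelial cells, fibroblasts, leukocytes, mural cells and immediate early genes) were chosen with earlier results of these data known. Named were all members and, in each other list, the genes that passed and the 2 with the highest mean FPKM. No protein sequence was used here.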

Additional observations from a re-analysis of the deposited data

How the results depend on the processing

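Of the alternatives, the split of all calls into higher and lower depended on the scaling: 322 higher and 304 lower with TMM became 105 and 423 with total-count scaling. The 626 calls over all genes became 1676 without the low-count filter, and 214 and 195 with limma on FPKM at pseudocounts of 1 and 0.1. Leaving out 1 library gave 301 (without TAC 1) to 1336 (without TAC 2). For the members other than Tnfrsf12a, the count of 0 became 3 without the filter (Tnfsf12, Tnfrsf1a and Tnf) and 1 with limma at a pseudocount of 1, and ranged from 0 to 1 without 1 library, the call being Tnf without sham 2 (log2 fold change -3.75, adjusted p = 0.0022) and Tnfrsf1a without TAC 2. In both, 1 library stands for its group, sham 1 for Tnf, and is assumed to vary like the other group. Tnf was also fitted without TAC 1 (adjusted p = 0.284) and without TAC 2 (0.233), and its fit without the filter gave -2.88 (adjusted p = 0.0248). The log2 ratio of Tnf ranged from -3.81 to -0.16 without 1 library. Without the filter, calls were 1 in the other ligands, 2 in the other receptors, 1 in the shedding genes, 6 in the response genes and 2 in the TWEAK muscle genes. With total-count scaling there were 2 calls in the other receptors and 1 in the receptor complexes, where limma also gave 1 at both pseudocounts. Limma at a pseudocount of 1 called 2 other receptors, and DESeq2 called 1 shedding gene and 2 TWEAK muscle genes. Leaving out 1 library gave 0 to 1 calls in the other receptors (0 without TAC 1), 1 to 4 in the receptor complexes, 0 to 1 in the shedding genes, 1 (without TAC 1) to 6 (without sham 2) in the response genes and 0 to 2 in the TWEAK muscle genes.

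With the replicate block there were 566 calls over all genes, 0 in the other members and 1 in the receptor complexes, where Tnip1 was lost. The deviations of same-numbered libraries correlated at -0.24, so the numbers were not taken as pairs. A crossed pairing, added after seeing the data, called 2131 genes, 2 other members, 1 other ligand, 3 other receptors and 1 shedding gene. It also called 7 response genes, 2 TWEAK muscle genes and 3 genes of the receptor complexes (2 higher and 1 lower). Over 322 alternative values with a p, of 27 single genes (without Tnfrsf12a and Tnf), 266 kept their sign and side of the threshold. A further 20, in 8 genes that did not pass (Tnfrsf1b, Traf2, Birc2, Ltbr, Tab2, Furin, Sod2 and Slc2a4), changed sign without passing. Of these, 6 were under total-count scaling and 10 on FPKM, which move the median of all genes tested to -0.20 and, at a pseudocount of 1, -0.13, and 4 came from leaving out a library. Another 23 passed where the result reported did not, 13 no longer passed, and 0 calls changed sign. The cause of these shifts was not tested. Counts were low for Tnf (3 to 83) and Tnfrsf10b (19 to 44), and 2 libraries per group limit every comparison.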
